A study of Mus musculus with 12 samples.

Results

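The genes described here are those of MHC class I presentation: H2-K1, H2-D1, H2-T23, B2m, Tap1, Tap2, Tapbp, Psmb8, Psmb9 and Nlrc5. They are 10 of the 55487 genes in the count table and were picked by name, with earlier results of these data known. All 10 were among the 15425 genes tested. RNA was sequenced from cells positive for CD11b, an integrin chain found on microglia and the rest of the myeloid lineage, which had been isolated with magnetic beads from papain-digested cerebral cortex of 12 male mice. WT mice and App NL-G-F mice each received veh or rh Bri2 BRICHOS R221E (called BRICHOS in group names), which gives 4 groups of 3 mice. The WT mice have a C57BL/6J background, and the App NL-G-F mice are knock-in mice whose humanized App gene carries the Swedish, Iberian and Arctic mutations of familial AD. From 9 months of age, all mice received 24 intravenous injections over 12 weeks, which held PBS alone (veh) or 10 mg/kg of rh Bri2 BRICHOS R221E, a mutated form of the BRICHOS chaperone domain of Bri2, and 4 weeks without treatment followed. Each library came from another mouse.

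MHC class I molecules display peptides from inside the cell to CD8-positive T cells. Proteasomes cut the peptides, and when the catalytic subunits Psmb8 and Psmb9 are built in, the particle is called the immunoproteasome. The transporter formed by Tap1 and Tap2 moves peptides into the endoplasmic reticulum, where tapasin, the product of Tapbp, helps to load them on a heavy chain (H2-K1, H2-D1 or the nonclassical H2-T23) paired with B2m. Nlrc5 is a transactivator of class I genes, and interferons are known to raise the whole set. Microglia make little class I at rest and more when activated.

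In the GRCm38 annotation, 8 of the 10 genes lie on chromosome 17, where H2-K1 is at chr17:33996017-34000347 and H2-T23 at chr17:36029773-36032855. B2m is at chr2:122147686-122153083, and Nlrc5 is at chr8:94434356-94527272. All are protein-coding. RefSeq promoter windows (GRCm38.p6; 250 bases before to 50 after a start site, 5′ to 3′ on the strand of the gene) were found for 8 genes, and not for Tap2 and Nlrc5. The following 4 are shown because H2-K1, H2-D1 and B2m had large differences between the genotypes, and Tap1 shares its promoter with Psmb9. The windows of H2-T23, Tapbp, Psmb8 and Psmb9 were searched but are not printed. Capitals mark matches to the interferon-stimulated response element core (GAAANNGAAA) or the NF-κB consensus, searched on both strands.
H2-K1, chr17:34000298-34000597, minus strand: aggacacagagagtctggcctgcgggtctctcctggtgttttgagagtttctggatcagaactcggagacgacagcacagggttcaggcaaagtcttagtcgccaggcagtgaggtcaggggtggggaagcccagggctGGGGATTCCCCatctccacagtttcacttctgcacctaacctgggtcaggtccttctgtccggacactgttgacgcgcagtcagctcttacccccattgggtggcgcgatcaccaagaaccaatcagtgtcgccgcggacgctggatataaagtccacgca
H2-D1, chr17:35262844-35263143, plus strand: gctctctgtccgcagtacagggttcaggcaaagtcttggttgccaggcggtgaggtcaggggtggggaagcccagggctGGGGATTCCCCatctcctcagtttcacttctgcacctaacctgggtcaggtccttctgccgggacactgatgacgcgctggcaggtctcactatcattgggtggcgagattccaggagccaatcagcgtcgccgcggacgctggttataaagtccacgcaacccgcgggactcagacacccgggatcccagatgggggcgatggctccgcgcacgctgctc
B2m, chr2:122147437-122147736, plus strand: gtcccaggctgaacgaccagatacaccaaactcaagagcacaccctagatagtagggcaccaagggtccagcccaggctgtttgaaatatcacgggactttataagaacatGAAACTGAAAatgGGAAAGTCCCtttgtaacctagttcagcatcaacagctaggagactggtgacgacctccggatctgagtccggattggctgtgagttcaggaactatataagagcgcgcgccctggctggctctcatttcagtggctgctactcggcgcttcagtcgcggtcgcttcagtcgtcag
Tap1, chr17:34187306-34187605, plus strand: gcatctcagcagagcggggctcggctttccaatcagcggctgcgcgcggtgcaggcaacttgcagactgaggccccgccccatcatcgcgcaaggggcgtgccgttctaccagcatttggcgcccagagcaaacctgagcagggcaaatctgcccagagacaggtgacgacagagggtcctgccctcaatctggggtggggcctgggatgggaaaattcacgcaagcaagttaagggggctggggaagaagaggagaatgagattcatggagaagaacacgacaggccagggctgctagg
The NF-κB consensus was matched in 3 of the 8 windows (H2-K1, H2-D1 and B2m) and in 8.46% of all 32851 windows of this length. H2-K1 and H2-D1 held the same capital letters. The response element core was matched in 2 of the 8 windows (B2m and H2-T23) and in 3.44% of all windows. CCAAT, the core of the Y box, was matched in 7 of the 8 windows and in 37.4% of all windows, and TGACG in 5 of the 8 and in 20.8% of all. The windows of Tap1 and Psmb9, which are transcribed away from each other, share 275 bases. Only exact matches to each pattern were counted, so variant forms of a site would be missed in any window. These matches describe letters in the windows, and binding was not measured.

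Libraries held 12433402 to 17889654 counts. A level of 3 counts, used as the detection limit, was 0.168 to 0.241 CPM, a CPM being a share of the library total in parts per 1000000. Even Nlrc5, the lowest of the genes, had 212 to 651 counts in every library. All levels below are CPM with library totals scaled with TMM factors. Of the 7 microglial markers, 2 were higher and 5 lower in veh-injected App NL-G-F than in WT mice. Of all tested genes, 20.1% were called higher and 16.9% lower in this comparison. The summed level of the 7 markers was 25380 to 29350 CPM in the 6 WT mice and 24200 to 27270 CPM in the 6 App NL-G-F mice. Their mean log2 CPM, used below as the score of a cell type, did not overlap. It was 11.42 to 11.63 in WT and 11.07 to 11.25 in App NL-G-F mice.

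Per kb of exon, B2m, the shared light chain, had the highest level in every group, at 2208 CPM per kb in veh-injected WT mice and 4525 in veh-injected App NL-G-F mice. It was followed by H2-D1 and H2-K1 in each group, and Nlrc5 was the lowest, at 1.95 CPM per kb in veh-injected WT mice. Neighbours in this order overlapped between mice for Tap1 and Psmb9 in all groups, and for Psmb8 and Tap2 in the WT mice given veh. H2-T23 was below Tapbp in both WT groups, whereas these genes overlapped in both App NL-G-F groups. The length used was that of all annotated exons of a gene together. This order and the sizes of the ratios between genes given below therefore depend on the annotation.

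The first comparison was that of App NL-G-F with WT mice given veh. All 10 genes were upregulated in App NL-G-F mice, and every App NL-G-F mouse was above every WT mouse for each of them. Across all tested genes, 20.1% were called higher and 16.9% lower at an adjusted p-value under 0.05, and 25.5% were higher without overlap of the groups. The median log2 fold change was 0.79 for the 10 genes and -0.02 for all tested genes. The genotypes were also apart in the share of counts on mitochondrial genes, at 1.62 to 2.06% in the 6 WT and 1.08 to 1.21% in the 6 App NL-G-F libraries, and in the TMM factor, at 1.045 to 1.104 and 0.874 to 0.953. The part of these in the differences was not tested.

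Among the heavy chains, H2-D1 was at 843, 878 and 825 CPM in veh-injected WT mice and at 2155, 2046 and 2228 CPM in veh-injected App NL-G-F mice. The lowest App NL-G-F mouse was thus far above the highest WT mouse. Its log2 fold change was 1.34 ± 0.09 (SE, n = 3 per group, edgeR adjusted p = 5.81e-07), a 2.53-fold difference. H2-K1, the other classical heavy chain, was at 658, 655 and 626 CPM in WT and at 1380, 1303 and 1367 CPM in App NL-G-F mice. This was a 2.09-fold difference (log2 fold change 1.06 ± 0.10, SE, edgeR adjusted p = 7.88e-06). H2-T23, which encodes the nonclassical molecule Qa-1, was at 148, 166 and 162 CPM in WT and at 310, 262 and 311 CPM in App NL-G-F mice. It was 1.85-fold higher (edgeR adjusted p = 1.56e-05). Of the 50-base windows in the transcripts, 9.63% for H2-K1, 12.8% for H2-D1 and 13.6% for H2-T23 also occur in other genes, other class I genes among them, so reads may have been divided among them.

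B2m was at 1922, 1951 and 1824 CPM in veh-injected WT mice and at 3933, 3847 and 3896 CPM in veh-injected App NL-G-F mice. The groups were tight, with a 2.05-fold difference between them (log2 fold change 1.03 ± 0.08, SE, edgeR adjusted p = 2.44e-06). No 50-base window of its transcripts occurs in another gene.

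In the peptide transport and loading group, Tap1 was at 53.5, 53.4 and 55.4 CPM in WT and at 85.2, 72.8 and 83.7 CPM in App NL-G-F mice. The difference was 1.49-fold (edgeR adjusted p = 0.00042). Tap2, the partner of Tap1 in the transporter, was at 87.8, 98.5 and 92.3 CPM in WT and at 111, 107 and 114 CPM in App NL-G-F mice. It had the smallest difference of the 10, at 1.19-fold (edgeR adjusted p = 0.00745). Tapbp was at 239, 257 and 256 CPM in WT and at 366, 355 and 381 CPM in App NL-G-F mice, 1.47-fold higher (edgeR adjusted p = 1.84e-05). Other genes overlap 29.0% of the exonic bases of Tapbp, 18.5% of those of Tap2 and 3.87% of those of Tap1, and how such reads were counted is not known.

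Of the immunoproteasome subunits, Psmb8 was at 86.5, 91.9 and 88.5 CPM in WT and at 148, 145 and 139 CPM in App NL-G-F mice. It was 1.62-fold higher (edgeR adjusted p = 1.29e-05). Psmb9 was at 38.2, 38.1 and 35.4 CPM in WT and at 49.0, 43.1 and 50.7 CPM in App NL-G-F mice. Its difference was smaller, at 1.28-fold (edgeR adjusted p = 0.0106). Other genes overlap 14.7% of the exonic bases of Psmb8 and 5.79% of those of Psmb9. The transactivator Nlrc5 was at 18.4, 15.1 and 16.2 CPM in WT and at 41.6, 35.3 and 45.5 CPM in App NL-G-F mice. At 2.47-fold (log2 fold change 1.30 ± 0.14, SE, edgeR adjusted p = 2.00e-05), its difference was the second in size after that of H2-D1.

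**Figure D1:**
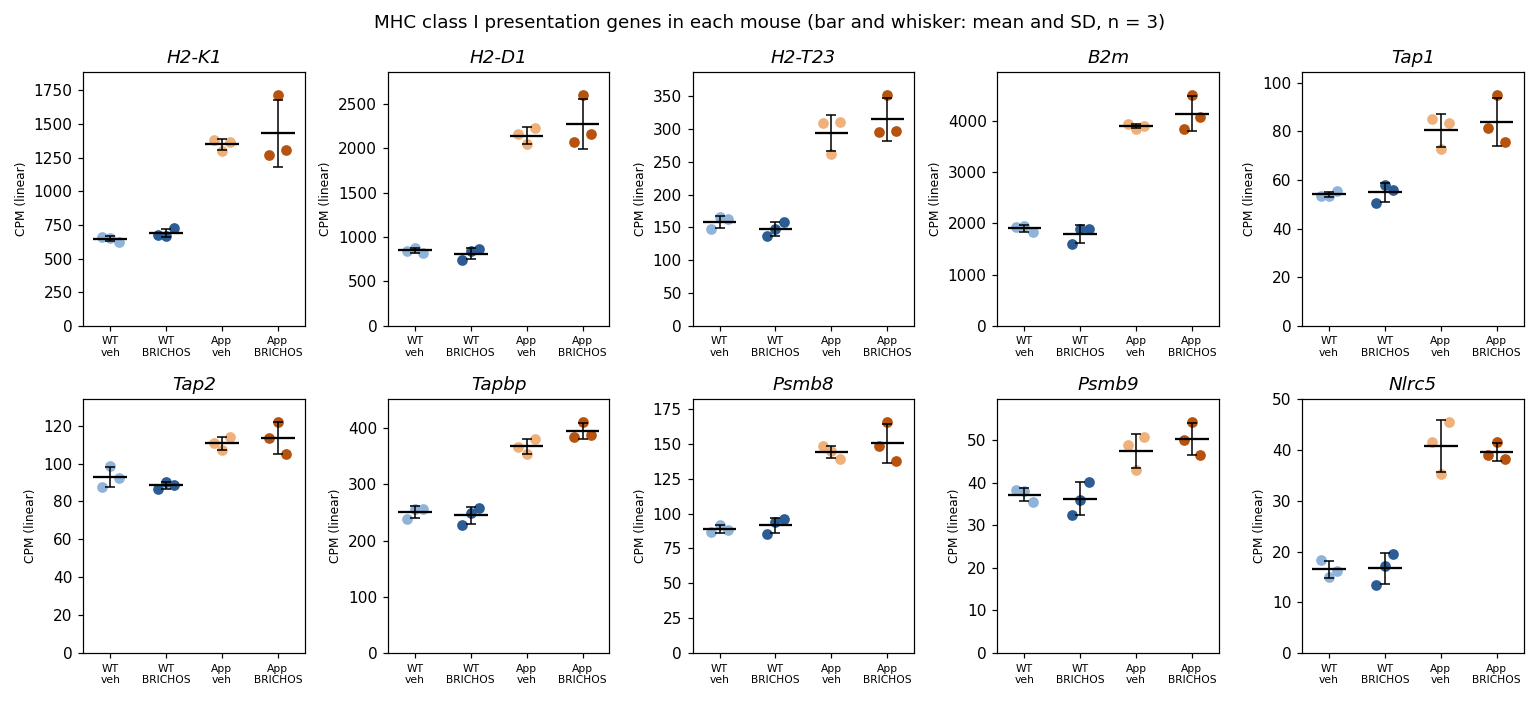
Level in CPM (linear axis from 0) of each of the 10 genes in the 12 mice, by group, with the mean and SD of 3 mice. For every gene the 6 App NL-G-F mice lie above the 6 WT mice, and mouse 2 of the BRICHOS-treated App NL-G-F group is the highest for 9 genes.

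The same comparison was made in mice treated with rh Bri2 BRICHOS R221E, which shares no library with the first. All 10 genes were again upregulated in App NL-G-F mice without overlap of the groups, with a median log2 fold change of 0.89 against -0.04 for all tested genes. In this comparison 20.8% of all tested genes were called higher, 21.8% lower, and 25.3% were higher without overlap. H2-D1 was at 738, 843 and 862 CPM in the treated WT mice and at 2075, 2600 and 2159 CPM in the treated App NL-G-F mice. The difference was 2.80-fold (log2 fold change 1.48 ± 0.09, SE, edgeR adjusted p = 2.34e-07). Nlrc5 was at 13.4, 17.1 and 19.6 CPM in WT and at 39.1, 41.7 and 38.2 CPM in App NL-G-F mice, 2.37-fold higher (edgeR adjusted p = 2.40e-05). B2m was 2.31-fold, H2-T23 2.13-fold and H2-K1 2.07-fold higher. The other genes were higher by 1.28-fold (Tap2) to 1.64-fold (Psmb8), with edgeR adjusted p-values of at most 0.00161. Tap2 and Psmb9 again had the smallest differences.

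Markers of other cell types also differed between the genotypes, and none of the markers was at 0 in all libraries. Of 6 endothelial markers, 5 were lower in App NL-G-F than in WT mice under either treatment, with a summed level of 491 to 701 CPM in the 6 WT mice and 359 to 572 CPM in the 6 App NL-G-F mice. With the endothelial score as a covariate, 7 of the 10 genes stayed upregulated in veh-injected mice, without Tap1 (log2 fold change 0.31), Tap2 (0.19) and Psmb9 (0.074), while the share of all tested genes called in either direction went from 37.0% to 13.5%. In BRICHOS-treated mice, 2 (B2m and H2-D1) stayed upregulated, and the share of all tested genes went from 42.5% to 5.45%. The log2 fold changes of the genes that were no longer called there were 0.92 for H2-K1, 0.70 for H2-T23, 0.59 for Psmb8, 0.46 for Tapbp, 0.36 for Nlrc5, 0.26 for Tap2, 0.16 for Tap1 and 0.0031 for Psmb9. This score is lower in all App NL-G-F than in all WT mice, so the covariate and the genotype cannot be told apart. All 7 astrocyte markers were higher in veh-injected App NL-G-F mice, and 0 of 7 were called in BRICHOS-treated mice. With the astrocyte score as a covariate, 8 genes stayed upregulated in veh-injected mice, without Tap2 (log2 fold change 0.33 against 0.25 without the covariate, edgeR adjusted p = 0.0522) and Psmb9 (0.38 against 0.35, edgeR adjusted p = 0.13). The share of all tested genes called was then 15.1%. In the treated mice all 10 stayed upregulated. Lower in veh-injected App NL-G-F mice were 6 of 6 markers of border macrophages, 6 of 6 of neutrophils, 3 of 5 of monocytes and dendritic cells, 3 of 6 of neurons, 2 of 6 of mural cells, and 1 each of 4 of B cells, 6 of oligodendrocytes and 5 of fibroblasts, where 16.9% of all tested genes were called lower. None of the markers of choroid plexus or ependymal cells was called there. When both genotypes had received BRICHOS, 5 of 5 and 4 of 4 of these were lower in App NL-G-F mice. So were 6 of 6 of mural cells, 5 of 5 of fibroblasts and 4 of 4 of B cells, where 21.8% of all tested genes were called lower. The mean scores of these cell types were also higher in WT mice given BRICHOS than in those given veh. The differences were 1.54 for choroid plexus, 1.38 for ependymal cells, 1.17 for fibroblasts, 0.78 for B cells and 0.37 for mural cells. In App NL-G-F mice they were -0.57, 0.07, -0.29, -0.15 and -0.56. Scores of monocytes and dendritic cells (0.88) and border macrophages (0.46) were also higher in WT mice given BRICHOS, without overlap, against 0.19 and 0.06 in App NL-G-F mice. Astrocytes (0.43), T and NK cells (0.22) and neurons (0.15) had higher mean scores in these WT mice too. Oligodendrocytes (-0.58), neutrophils (-0.13), microglia (-0.12) and endothelial cells (-0.08) had lower ones. The 8 markers of T and NK cells, which carry receptors for class I molecules, summed to 1.49 to 2.98 CPM in WT and 3.56 to 7.48 CPM in App NL-G-F mice. Only 2 of them were tested. With veh, 1 was higher and 0 lower in App NL-G-F mice, and with BRICHOS 1 was higher and 1 lower. Their score overlapped, at -1.92 to -1.43 in WT and -1.99 to -1.44 in App NL-G-F mice. The part of these cells in the differences was not tested, and fewer cells of a type cannot be told apart from less RNA per cell in such samples. The exact two-sided permutation test of a score cannot go below p = 0.1 with 3 against 3 mice.

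The next comparisons were those of rh Bri2 BRICHOS R221E with veh within a genotype. In App NL-G-F mice, 0 of the 10 genes were called, and 0 had an unadjusted p-value under 0.05 with edgeR or DESeq2. Of all tested genes, 0.00648% were called after adjustment and 10.8% had an unadjusted p-value under 0.05. Log2 fold changes were between -0.04 (Nlrc5) and 0.10 (Tapbp), and the 95% confidence intervals of the 10 genes together ran from a 0.796-fold to a 1.23-fold level. H2-D1 was at 2155, 2046 and 2228 CPM with veh and at 2075, 2600 and 2159 CPM with rh Bri2 BRICHOS R221E, so that the groups overlapped (log2 fold change 0.09, 95% interval -0.11 to 0.28). Without mouse 2 of the treated group its log2 fold change was -0.0092, and the median of the 10 genes was -0.0060 in place of 0.083. With the endothelial score as a covariate, Nlrc5 was at -0.48 ± 0.13 (SE, edgeR adjusted p = 0.927, unadjusted p = 0.00318), outside the range of these intervals. This score was 5.57 to 6.07 with veh and 5.17 to 5.21 with the treatment, so the covariate and the treatment cannot be told apart. Mean scores of astrocytes (-1.36), choroid plexus (-0.57) and mural cells (-0.56) were also lower in the treated App NL-G-F mice. Those of the other cell types differed by -0.29 to 0.19. The part of these in the values was not tested. H2-K1 was at 1380, 1303 and 1367 CPM with veh and at 1271, 1716 and 1305 CPM with the treatment. The treated mice included both the lowest and the highest value. Tapbp was the only gene without overlap, at 366, 355 and 381 CPM with veh and 384, 410 and 388 CPM with the treatment (edgeR adjusted p = 0.576), where 6.37% of all tested genes were higher without overlap.

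In WT mice, 0 of the 10 genes were called, and 0 had an unadjusted p-value under 0.05 with edgeR or DESeq2. The corresponding shares of all tested genes were 0.0% and 11.4%. Log2 fold changes were between -0.10 (H2-T23) and 0.09 (H2-K1), with intervals from a 0.812-fold to a 1.24-fold level. The treated WT mice also had higher mean scores of several cell types. Among these were choroid plexus, ependymal cells, fibroblasts, monocytes and dendritic cells, B cells, border macrophages and mural cells. The part of these in the values was not tested. H2-K1 alone did not overlap, at 658, 655 and 626 CPM with veh and 676, 666 and 728 CPM with the treatment (edgeR adjusted p = 0.766), where 8.36% of all tested genes were higher without overlap. Whether the treatment effect differed between the genotypes was tested directly, and a difference was called for 0 of the 10 genes, and 0 had an unadjusted p-value under 0.05 with edgeR or DESeq2. It was called for 0.00648% of all tested genes, and 14.8% had an unadjusted p-value under 0.05. The largest was that of H2-T23, at 0.20 on the log2 scale (95% interval -0.08 to 0.48, edgeR adjusted p = 0.491). These p-values do not show that the treatment left the genes as they were, and the intervals give the changes that the 3 mice per group allow.

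**Figure D2:**
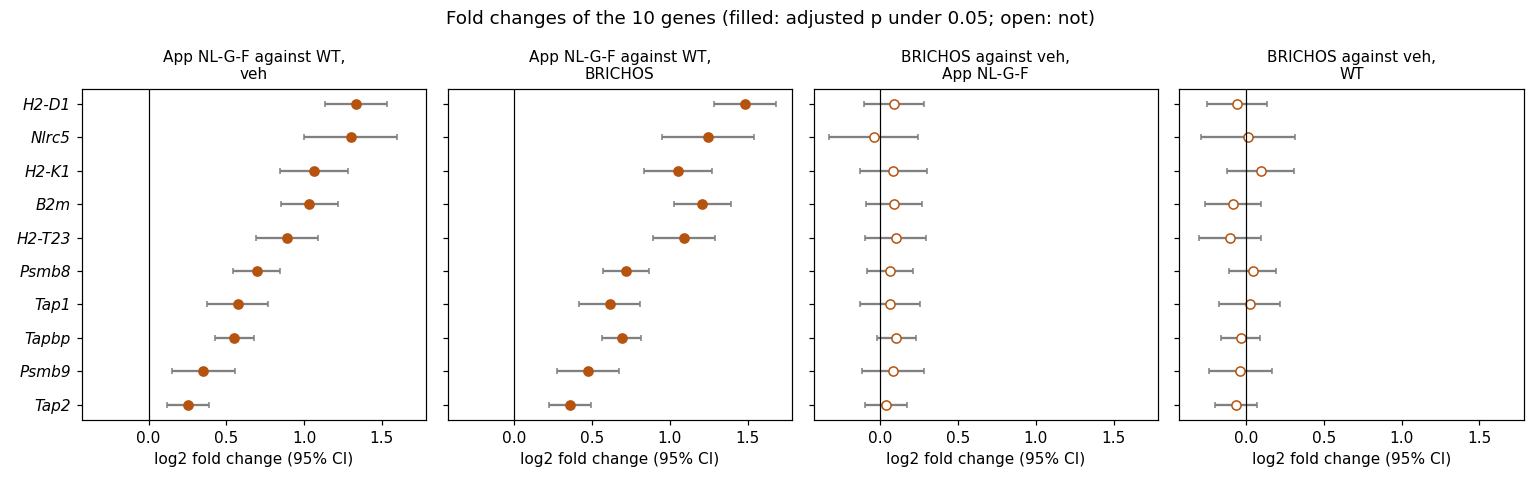
Log2 fold change of the 10 genes in 4 comparisons, with 95% confidence intervals from the fit across all genes. Filled points have an adjusted p-value under 0.05, which are all 10 in both genotype comparisons and 0 in both treatment comparisons.

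Within groups, the genes varied together from mouse to mouse. Log2 CPM deviations from the group means correlated positively for all 45 pairs of genes, with a mean Pearson's r of 0.68 and a range of 0.18 to 0.92 over 12 libraries, which share their depth and scaling within a mouse. The highest value was that of H2-D1 and B2m, whose products form a complex. Mouse 2 of the BRICHOS-treated App NL-G-F group was above its group mean for 10 of 10 genes, by 0.14 on average. In 3 other mice all 10 genes also lay on the same side, namely mouse 1 (mean deviation -0.12) and mouse 3 (0.093) of the treated WT group and mouse 3 of the treated App NL-G-F group (-0.085). Without the former mouse, the mean r was 0.57 over 11 libraries. Across all tested genes, the median r with the mean deviation of the 10 genes was 0.03. Each of the 10 had an r of 0.63 (Nlrc5) to 0.94 (H2-D1) with the mean of the other 9. The genes outside the lists whose deviations were most like the mean of the 10 were Rnf123 (r = 0.97), Ifitm2 (0.95), Rab24 (0.94), Ptp4a3 (0.93) and Fbxw4 (0.93). Their genotype differences were unlike each other, since Fbxw4 was higher (log2 fold change 0.54) and Ptp4a3 lower (-0.54) in veh-injected App NL-G-F mice, while Rnf123 had a log2 fold change of -0.05 (edgeR adjusted p = 0.526).

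**Figure D3:**
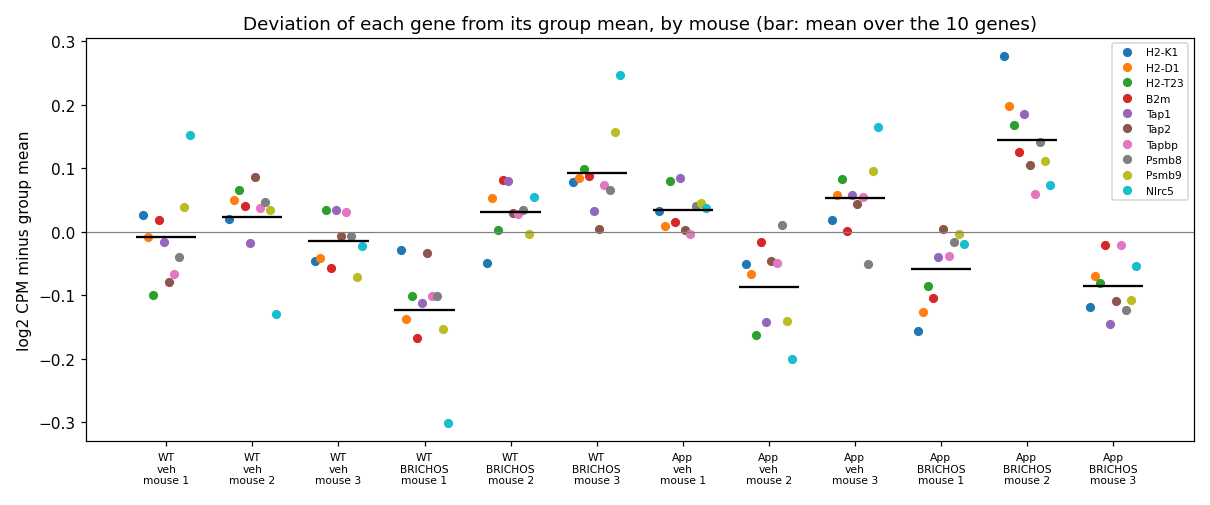
Deviation of each gene from its group mean (log2 CPM) in each mouse, with the mean over the 10 genes as a bar. The bar of mouse 2 of the treated App NL-G-F group is at 0.14 and that of mouse 1 of the treated WT group at -0.12.

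The genes around this pathway were followed in veh-injected mice, where the shares of all tested genes called higher and lower were 20.1% and 16.9%. Of 14 other H2 class I heavy chains, 9 were tested, of which 7 were higher and 2 lower in App NL-G-F mice (median log2 fold change 1.06). H2-M2 was higher by 2.39 and H2-Q6 by 1.61 on the log2 scale, although H2-M2 was at only 0.353 CPM in WT mice and H2-Q6 is a close paralog of H2-Q7, so that its reads are uncertain. The class I-like molecules went the other way for 3 of 4, with Cd1d1, which presents lipids, at -0.98, whereas Mr1, which presents vitamin B metabolites, was at 0.81. Of 5 further genes of peptide loading and trimming, 3 were upregulated, among them the chaperones Calr (0.67) and Pdia3 (0.37).

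Of 4 further genes of the immunoproteasome and its activator, 3 were upregulated, with Psme2, a subunit of the activator PA28, at 0.54 and Pomp, which helps to assemble proteasomes, at 0.50. All 3 constitutive catalytic subunits were upregulated too. Psmb6, whose place Psmb9 takes in the immunoproteasome, rose most of these, by 1.08 on the log2 scale, and Psmb5, whose place Psmb8 takes, by 0.30. Ratios of levels per kb within each mouse were then computed for 6 pairs, which were chosen with these values known and are given as a description. Psmb8 to Psmb5 was 1.03 to 1.21 in the 6 WT mice and 1.32 to 1.57 in the 6 App NL-G-F mice. Psmb9 to Psmb6 moved in the other direction, from 0.301 to 0.368 in WT mice down to 0.166 to 0.240 in App NL-G-F mice. The third pair, Psmb10 to Psmb7, overlapped, with 1.77 to 2.19 in WT and 1.94 to 2.34 in App NL-G-F mice. H2-D1 to H2-K1 was 1.25 to 1.53 in WT and 1.73 to 1.88 in App NL-G-F mice, and Tap1 to Tap2 was 0.375 to 0.443 in WT and 0.469 to 0.539 in App NL-G-F mice. B2m to the sum of H2-K1 and H2-D1 overlapped, with 3.58 to 4.06 in WT and 3.29 to 3.69 in App NL-G-F mice.

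**Figure D4:**
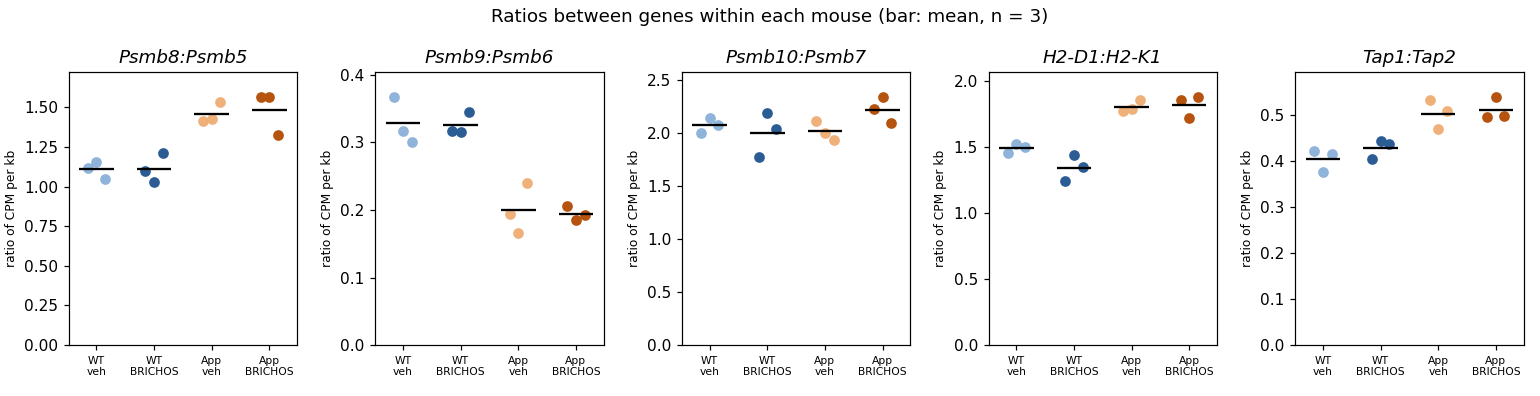
Ratio of CPM per kb for 5 pairs of genes within each mouse (linear axis from 0), with the mean of 3 mice as a bar. The ratio of Psmb8 to Psmb5 is higher and that of Psmb9 to Psmb6 lower in all 6 App NL-G-F mice than in all 6 WT mice.

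Of 14 regulators of class I genes, 4 were upregulated and 1 was downregulated in App NL-G-F mice given veh (median 0.06). For this and the following lists, the shares of all tested genes called were 20.1% higher and 16.9% lower. Irf1, an interferon-induced transcription factor, rose by 1.24 on the log2 scale. Of 7 interferon receptors and kinases, 2 were upregulated and 2 downregulated, with Ifngr1, a chain of the interferon-γ receptor, at -0.64 and Ifnar2, a chain of the type I interferon receptor, at 0.38. Of 18 interferon-stimulated genes, 6 were upregulated, with Oas1a, a sensor of double-stranded RNA, at 1.27, and 2 were downregulated, with Gbp7, a guanylate-binding protein, at -1.51 (median 0.38). The other 10 were not called. Of 7 genes of MHC class II presentation, 6 were upregulated (median 1.69), with Cd74, the invariant chain, at 2.89 and H2-Aa at 2.48. Of 5 class I receptors and checkpoints, 3 were upregulated and 1 downregulated, with Lilrb4a, an inhibitory receptor, at 2.46 and Cd274, which encodes PD-L1, at 2.0. The downregulated gene was Pirb, at -1.03 (edgeR adjusted p = 0.000102). In the treatment comparisons, 0 genes of these lists were called in either genotype. Of all tested genes, 0.00648% were called in App NL-G-F and 0.0% in WT mice. In WT mice, the median log2 fold change with treatment was 0.88 for class II presentation and between -0.07 and 0.16 for the other lists. There, Cd74 was at a mean of 343 CPM with veh and 588 CPM with rh Bri2 BRICHOS R221E. The treated WT mice also had higher scores of monocytes and dendritic cells (by 0.88), B cells (0.78) and border macrophages (0.46). The part of these cells in the class II values was not tested.

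**Figure D5:**
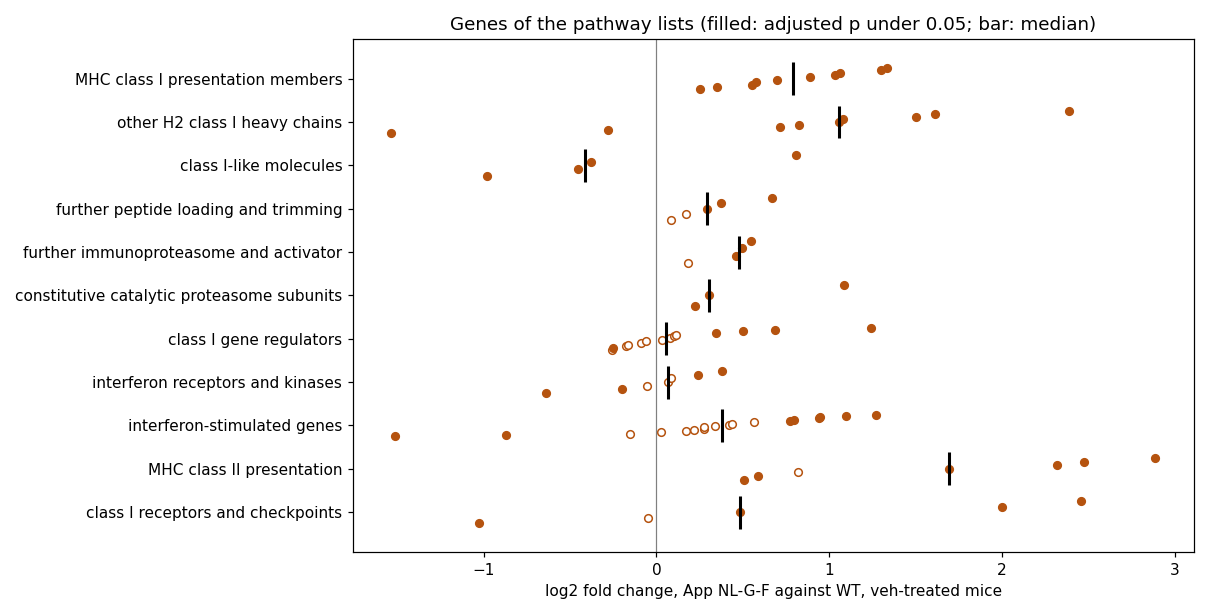
Log2 fold change between veh-injected App NL-G-F and WT mice for every tested gene of the 10 members and the 10 other lists, with the median of each list as a bar and filled points for an adjusted p-value under 0.05. The medians are 0.79 for the members, 1.06 for the other H2 heavy chains and 1.69 for class II presentation.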

How the data were processed

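RNA-sequencing libraries of CD11b-positive cells from 12 mice, 3 in each of 4 groups, were analysed. After adaptor trimming (Cutadapt) and alignment to GRCm38 (STAR), the authors obtained a read count per gene from featureCounts, and these raw counts were deposited. The strand setting and the handling of reads shared between genes are not given in the sources used here. Samples were grouped by their titles.

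Genes passing edgeR's filterByExpr (minimum count 10) were fitted with TMM factors and 1 coefficient per group, on all 12 libraries, and tested with the quasi-likelihood test of edgeR 4.0.16 in R 4.3.3. The Benjamini-Hochberg adjustment ran over all 15425 genes. Standard errors and 95% intervals were derived from the F statistic and are approximate. Log2 CPM values used a prior count of 2. The test was checked on simulated data. The intervals reflect the spread between mice, and the limit of 3 counts covers counting error only.

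The members, the 10 other pathway lists and the 14 marker lists were chosen with earlier results of these data known. Of each pathway list, the 2 called genes that differed most (log2 scale, either direction) between the veh groups are named, and the 5 genes outside the lists with the highest correlation to the members. For the regulators, 1 gene picked this way is not reported here. Exceptions (Psmb7, Psmb10, H2-Q7 and Pirb, in the ratios, as a paralog or as the downregulated gene of its list) were chosen after their values were seen. Alternatives were RLE size factors, no filter on low counts, DESeq2 1.42.0, the replicate number as a block, only the compared groups in the fit, a marker score as covariate, and leaving out each library. Equally numbered libraries correlated at -0.11 to 0.26 in their deviations, and all 3 pairs were above 0.1 only between veh-treated WT and BRICHOS-treated App NL-G-F mice, which were not compared directly but both enter the difference of treatment effects. The mean r was 0.12 to 0.19 between veh-treated WT mice and each other group, and -0.040 to 0.081 between the other groups. Since the 3 pairs were not all above 0.1 for every pair of groups, the numbers were not taken to pair the mice. What the numbers stand for is not given. Replicates were compared with a chi-square test, whose value per degree of freedom was 5.64 to 33.4, so that no 2 libraries of a group agreed within sampling noise.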

Additional observations from a re-analysis of the deposited data

How the results depend on the processing

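All 10 genes remained called higher in both genotype comparisons with RLE size factors, no filter, DESeq2, only the compared groups in the fit and each library left out. Leaving out a library moved a log2 fold change by at most 0.15. With the endothelial score as a covariate, 7 of the 10 genes were called in veh-injected mice, where the share of all tested genes called went from 37.0% to 13.5%. In BRICHOS-treated mice 2 of the 10 were called, and the share went from 42.5% to 5.45%. The log2 fold changes of the genes no longer called there ran from 0.0031 (Psmb9) to 0.92 (H2-K1), with Nlrc5 at 0.36 in place of 1.25. With the astrocyte score, 8 genes were called in veh-injected and 10 in BRICHOS-treated mice, where 15.1% and 43.7% of all tested genes were called. A fit that added the replicate block called 10 genes in each genotype comparison and 0 in the treatment comparisons, and changed no call. The numbers were not taken to pair the mice.

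The signs of the treatment effects were not stable, while 0 of 10 genes were called under any alternative. The effect farthest from 0 was that of Nlrc5 in App NL-G-F mice with the endothelial score as a covariate, at -0.48 (edgeR adjusted p = 0.927, unadjusted p = 0.00318) against -0.042 without it, and its difference of treatment effects was then -0.41 (unadjusted p = 0.0144). The endothelial score was lower in all treated than in all veh-injected App NL-G-F mice, so it cannot be told apart from the treatment there. In App NL-G-F mice the log2 fold change turned negative with the astrocyte score as a covariate for H2-K1 (-0.043), Tap1 (-0.0090) and Tap2 (-0.013). With the endothelial score it turned negative for H2-D1 (-0.072), H2-T23 (-0.094), B2m (-0.057), Tap1 (-0.16), Tap2 (-0.013), Tapbp (-0.010), Psmb8 (-0.0022) and Psmb9 (-0.15). Over the left-out libraries the sign changed for Tap1 (-0.031 to 0.13), Nlrc5 (-0.14 to 0.044), H2-K1 (-0.060 to 0.16), H2-D1 (-0.0092 to 0.15), Tap2 (-0.010 to 0.090) and Psmb8 (-0.0027 to 0.12).

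In WT mice it changed for Nlrc5 without a filter (-0.0032), for Tap1 (-0.014) and Nlrc5 (-0.065) with the endothelial score, and over the left-out libraries for Nlrc5 (-0.12 to 0.15), H2-D1 (-0.10 to 0.0020), Tapbp (-0.072 to 0.010), Psmb9 (-0.12 to 0.032) and Tap1 (-0.021 to 0.071). The difference of the treatment effects changed sign for H2-K1 with RLE size factors (0.0095), no filter (0.010) and DESeq2 (0.0095), for Tap1 with the astrocyte score (-0.053), and for Tap1 (-0.14), Psmb8 (-0.033) and Psmb9 (-0.071) with the endothelial score. Over the left-out libraries it did so for Nlrc5 (-0.19 to 0.076), H2-K1 (-0.16 to 0.072), Tap1 (-0.055 to 0.11) and Psmb8 (-0.047 to 0.086). The cause was not tested. Without mouse 2 of the BRICHOS-treated App NL-G-F group, the median log2 fold change of the 10 genes with treatment in App NL-G-F mice was -0.0060 (0.083 with it). With a variance stabilizing transformation the mean r over pairs was 0.70. The members had 212 or more counts in every library, so none was near the limit of 3 counts.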
